A study of Mus musculus with 8 samples.

Results

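Fos, Fosb, Jun, Junb, Jund, Egr1, Ier2, Atf3, Dusp1 and Zfp36 are immediate early and AP-1 genes, and this account follows these 10 genes through 3 groups of sorted mouse intestinal cells. They were taken by symbol, with no cutoff on their values, from a table of 24013 gene symbols, though earlier results of these data were known. All 10 were in the table, and 9 of them reached 1 FPKM (fragments per kilobase of transcript and per 1000000 mapped fragments) in at least 2 of the 8 libraries and were tested among 11190 genes. Fosb did not reach 1 FPKM in any library and was not tested.

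RNA was sequenced from live EpCAM+ epithelial cells, free of DAPI and CD45 staining, of Lyz1CreER; R26R-tdT mice on a mixed C57/BL6 and 129 background, aged 8 to 14 weeks. Every animal, controls included, had received 1 dose of 10 mg tamoxifen. In these mice Cre is driven from Lyz1, the lysozyme gene of Paneth cells, so tdTomato marks cells that expressed Lyz1 when tamoxifen was given, together with their descendants. Tomato-positive cells were split by the surface protein CD24 into the Paneth cell gate (CD24+) and labelled cells outside it (CD24-, called derivative cells by the submitters). The CD24+ gate was sequenced in 2 libraries without radiation and in 3 libraries taken 5 days after it, and the CD24- gate in 3 libraries taken 5 days after radiation. CD24- cells without radiation are not part of the data used here, so gate and radiation cannot be told apart between the CD24- libraries and the non-irradiated ones. No label assigns libraries to separate animals, and every p-value therefore reflects the spread among libraries, which may be technical.

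AP-1 is a pair of basic leucine zipper proteins, most often one of the Fos family (Fos, Fosb) with one of the Jun family (Jun, Junb, Jund). The genes are called immediate early because growth factors, stress and the handling of cells can switch them on within minutes through MAP kinases, without new protein synthesis. The cell then limits the pulse: Dusp1 is a phosphatase that switches MAP kinases off, Zfp36 (tristetraprolin) binds AU-rich messenger RNAs and speeds their decay, and Atf3 is a stress-induced partner of Jun that often represses. Egr1 is a zinc finger factor of the same early wave, and Ier2 is a small early-response gene. In the intestinal epithelium AP-1 is known for its part in crypt proliferation and in the response to injury.

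The labelled cell types were checked with marker genes. Lyz1 averaged 33954 ± 21126 FPKM (SD, n = 2) in non-irradiated CD24+, 33888 ± 2497 (n = 3) in irradiated CD24+ and 1258 ± 1162 (n = 3) in irradiated CD24- cells. The 10 enterocyte markers, all of them in the table and above 1 FPKM in each group, summed to 516 to 2360 FPKM in non-irradiated CD24+, 820 to 1317 in irradiated CD24+ and 15903 to 35101 in irradiated CD24- cells. In the same order of groups, goblet cell markers summed to 10584 to 11957, 9168 to 15185 and 6094 to 11428 FPKM, and so overlapped between the gates. Crypt base columnar stem cell markers summed to 578 to 871, 1034 to 1290 and 71.3 to 461 FPKM. Neither gate thus held markers of just 1 cell type. Of 12 immune markers, those other than Lyz2 summed to 0.790 to 2.08 FPKM in CD24+ and 3.26 to 4.87 in CD24- libraries. Of them 1 reached 1 FPKM in CD24- cells and 0 in either CD24+ group, and Cd79a was at 0 in all irradiated libraries. With Lyz2 the 12 summed to 184 to 524 FPKM in non-irradiated CD24+, 366 to 511 in irradiated CD24+ and 6.69 to 40.8 in CD24- cells. Paneth cell products, here the Paneth cell markers and all Defa genes, made up 54.4% to 64.1% of the summed FPKM of a CD24+ library and 1.43% to 9.75% of that of a CD24- library. Replicate 1 of the non-irradiated cells stood apart, its median-of-ratios size factor (the typical ratio of its genes to their mean over libraries) being 0.518, where the remaining CD24+ libraries had 0.846 to 0.960 and CD24- libraries 1.35 to 1.53. Depth, approximated from the smallest steps between low values, was 34.7 to 45.2 (in units of 1000000 fragments) per library.

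The sequences just upstream of Fos, Jun, Dusp1 and Junb are shown as examples of genes that differed in how replicate 3 stood. It was well above the others in both irradiated gates for Fos and Dusp1, mainly in CD24- cells for Jun, and little for Junb. These values are described further on. Atf3, where replicate 3 deviated most (1.06 and 1.72 on the log2 scale), is not printed. Whether the sites have a part in the replicate 3 values was not tested. A table of RefSeq promoters (build GRCm38.p6, which is not the mm9 build named in the submitters' processing notes) matched 8 of the 10 genes, leaving Egr1 and Ier2 as names only. Each line runs from 5' to 3' on the gene's strand, and capitals mark TGACG, the short site of the cAMP response element, or TGACNTCA, the full element and its Jun-type variant. Fos lies at chr12:85473640-85473889 (plus strand), Jun at chr4:95052223-95052472 (minus strand) and Junb at chr8:84978749-84978998 (minus strand), and each window holds the 250 bases before the annotated start. The Dusp1 window, chr17:26508520-26508722 (minus strand), holds 203 bases, from 250 to 48 bases before the start, where an annotated exon begins.
Fos: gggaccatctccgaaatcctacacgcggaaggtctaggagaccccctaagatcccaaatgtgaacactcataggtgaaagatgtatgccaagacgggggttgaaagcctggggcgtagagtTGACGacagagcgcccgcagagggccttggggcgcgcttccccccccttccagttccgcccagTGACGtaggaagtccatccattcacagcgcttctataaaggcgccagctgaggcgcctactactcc
Jun: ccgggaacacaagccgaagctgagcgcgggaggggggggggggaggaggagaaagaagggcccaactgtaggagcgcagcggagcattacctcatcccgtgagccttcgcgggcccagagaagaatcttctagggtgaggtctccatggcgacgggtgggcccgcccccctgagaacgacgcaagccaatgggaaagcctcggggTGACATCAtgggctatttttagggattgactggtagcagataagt
Dusp1: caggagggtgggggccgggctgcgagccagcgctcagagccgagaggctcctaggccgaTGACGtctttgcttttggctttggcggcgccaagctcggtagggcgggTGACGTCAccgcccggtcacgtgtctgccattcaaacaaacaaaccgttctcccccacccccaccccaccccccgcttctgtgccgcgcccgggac
Junb: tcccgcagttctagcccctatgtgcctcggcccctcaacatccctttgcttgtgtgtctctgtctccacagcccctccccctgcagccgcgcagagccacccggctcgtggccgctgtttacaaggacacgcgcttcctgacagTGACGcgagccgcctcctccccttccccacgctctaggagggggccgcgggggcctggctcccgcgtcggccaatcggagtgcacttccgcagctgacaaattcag

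Motifs were searched on both strands of the 250 bases before each start. TGACG was found in 5 of the 8 matched promoters (Atf3, Dusp1, Fos, Fosb, Junb) and in 17.8% of 32851 promoters of that length. TGACNTCA was found in 2 (Dusp1, as TGACGTCA, which contains the short site, and Jun, as TGACATCA) and in 7.49% of all promoters. The AP-1 site TGANTCA was in none of the 8 and in 6.75% of all, the EGR site GCGNGGGCG in 2 (Fosb, Zfp36) and 4.7% of all, and the CArG box bound by serum response factor in 1 (Zfp36) and 1.47% of all. A match describes the letters in this window only.

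Zfp36 and Fos were the most abundant of the 10 genes in CD24- cells, and together with Junb they were higher there than in irradiated CD24+ cells under every setting tried. Fos stood at 21.8, 19.2 and 49.6 FPKM in replicates 1 to 3 of irradiated CD24- cells, at 3.12, 6.19 and 9.22 FPKM in those of irradiated CD24+ cells and at 5.70 and 17.2 FPKM in the 2 non-irradiated libraries. The 3 CD24- libraries were above all 5 CD24+ libraries. Between the irradiated gates Fos differed by 2.09 ± 0.45 on the log2(FPKM + 1) scale (limma estimate ± SE, Benjamini-Hochberg adjusted p = 0.00235). All fold changes are on this scale, which pulls genes near 1 FPKM toward 0, and calls are made at an adjusted p under 0.05.

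Fosb, the other Fos family gene, was close to the limit of detection. Its values were 0.109 and 0.740 FPKM in non-irradiated CD24+, 0.0268, 0.109 and 0.416 in irradiated CD24+ and 0.193, 0.126 and 0.835 in irradiated CD24- cells, or roughly 4 to 132 fragments per library. The groups overlapped. Replicate 3 was the highest library in each irradiated gate.

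Of the 3 Jun genes, Junb and Jund were called between the irradiated gates and Jun was not, and the difference among them was not tested. Junb stood at 8.02, 12.7 and 12.9 FPKM in CD24- cells, against 2.47, 4.28 and 3.46 in irradiated CD24+ and 1.20 and 3.61 in non-irradiated cells. Jund stood at 10.6, 6.33 and 10.9 FPKM in CD24- cells, against 3.33, 4.71 and 3.93 in irradiated CD24+ and 1.41 and 3.97 in non-irradiated cells. Both had CD24- libraries above every CD24+ library, and both were higher in CD24- than in irradiated CD24+ cells, Junb by 1.46 ± 0.29 (adjusted p = 0.00135) and Jund by 1.02 ± 0.28 (adjusted p = 0.00986). The Jund call was lost after median-of-ratios scaling (adjusted p = 0.103) and quantile normalization (adjusted p = 0.1002). Jun itself stood at 6.99, 6.45 and 16.3 FPKM in CD24-, 5.17, 6.47 and 6.57 in irradiated CD24+ and 2.44 and 7.75 in non-irradiated cells. Its groups overlapped, and the difference between the irradiated gates was 0.52 with a 95% interval from -0.30 to 1.34 (adjusted p = 0.256), and -0.041 and -0.099 after those 2 scalings.

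Among the genes that limit the response, Zfp36 was higher in CD24- cells by about as much as Fos, and the order of the 2 genes turned under quantile normalization (1.19 for Zfp36, 1.31 for Fos). Zfp36 stood at 35.5, 40.4 and 63.4 FPKM in CD24- cells, at 8.49, 10.1 and 10.1 in irradiated CD24+ cells and at 5.44 and 13.3 in non-irradiated cells. The lowest CD24- library (35.5) was above the highest CD24+ library (13.3), and the limma difference between the irradiated gates was 2.12 ± 0.30 (adjusted p = 0.000166). Atf3 stood at 4.23, 3.57 and 15.1 FPKM in CD24-, 0.970, 0.822 and 2.96 in irradiated CD24+ and 0.469 and 7.26 in non-irradiated cells. Replicate 3 was far above the others in both irradiated gates, and the 2 non-irradiated libraries differed 15.5-fold. Atf3 was called higher in CD24- than in irradiated CD24+ cells (1.59 ± 0.61, adjusted p = 0.0454). That call was lost without replicate 1 (adjusted p = 0.0865) or 2 (0.109) of irradiated CD24+ cells, and without replicate 3 of CD24- cells, where the difference was 1.01 (0.124). It held in 13 of 21 alternative settings.

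Dusp1 was low throughout, at 1.34, 1.24 and 2.90 FPKM in CD24-, 0.502, 0.680 and 1.46 in irradiated CD24+ and 0.609 and 2.24 in non-irradiated cells. These ranges overlapped, and the difference between the irradiated gates was 0.57 with a 95% interval from -0.09 to 1.23 (adjusted p = 0.129). CD24- was higher than CD24+ in each of the 3 same-numbered pairs. With the replicate number as a block over the 6 irradiated libraries Dusp1 was called higher in CD24- cells (adjusted p = 0.00680). It was called higher in 4 of 20 alternatives.

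Neither Ier2 nor Egr1, early genes outside the AP-1 family, was called between the irradiated gates by the reported limma fit. Ier2 stood at 19.8, 19.6 and 15.5 FPKM in CD24-, 10.5, 15.4 and 11.4 in irradiated CD24+ and 6.41 and 11.7 in non-irradiated cells. The irradiated gates did not overlap but nearly touched, and the difference of 0.53 ± 0.24 was not called (adjusted p = 0.0828). It was called higher in 7 of 21 alternatives, among them the replicate block over the 6 irradiated libraries (adjusted p = 0.0129). Median-of-ratios scaling turned the estimate to -0.075 and quantile normalization to -0.27. Egr1 stood at 1.99, 2.17 and 7.45 FPKM in CD24-, 2.26, 3.92 and 6.71 in irradiated CD24+ and 5.11 and 7.51 in non-irradiated cells. Its groups overlapped, with 2 CD24- libraries below all CD24+ libraries and the third close to the highest. The difference between the irradiated gates was -0.21 with a 95% interval from -1.10 to 0.68 (adjusted p = 0.677), and it was 0.78 after rescaling to TPM. Egr1 was called lower in 1 of 21 alternatives, the limma fit with array weights (adjusted p = 0.0289).

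**Figure D1:**
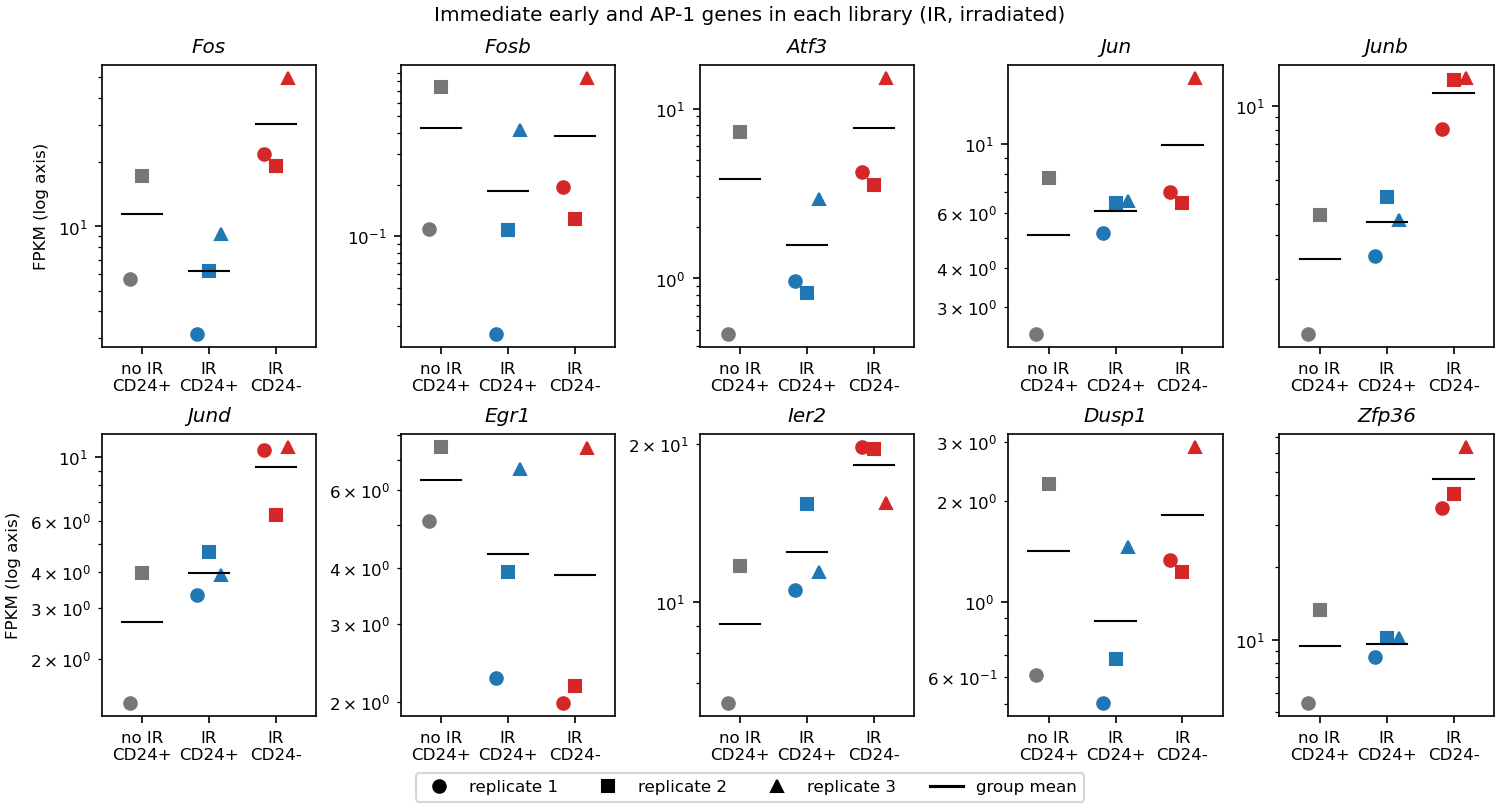
FPKM (log axis) of each of the 10 genes in the 8 libraries, grouped as non-irradiated CD24+, irradiated (IR) CD24+ and irradiated CD24- cells; symbols give the replicate number and bars the group mean. Zfp36, Fos, Junb and Jund are highest in the CD24- libraries, Egr1 is not, and replicate 3 is the top irradiated library of its gate for Fos, Fosb, Atf3, Jun, Egr1 and Dusp1.

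In all, 5 of the 9 tested genes (Fos, Junb, Jund, Atf3, Zfp36) were called higher in CD24- than in irradiated CD24+ cells and 0 lower, against 48.6% of all 11190 genes called higher and 7.27% called lower by the same limma fit. The share is close to that of all genes, so the count is no result about these genes as a set. The libraries of the 2 gates did not overlap for 6 of the 9 genes, against 59.1% of all genes with CD24- higher. The median difference was 1.02 over the 9 genes and 0.51 over all genes. Zfp36 lay at the 93.3th and Fos at the 93.0th percentile of all genes' differences, while Jun lay at the 50.5th and Egr1 at the 14.6th. In bulk RNA, fewer cells of a type and less RNA per cell cannot be told apart.

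Scaling between libraries moved all genes together. The median difference between the irradiated gates, 0.51 on the deposited values, was -0.02 after median-of-ratios scaling, -0.07 after quantile normalization and 1.60 after rescaling to TPM. The shares of all genes called higher and lower were then 29.5% and 28.3%, 25.2% and 30.5%, and 89.4% and 2.32%. Fos, Junb and Zfp36 were called higher in all 21 alternative settings of this comparison. Their differences ranged from 1.31 to 3.25, from 0.87 to 2.56 and from 1.19 to 3.33, and above the median gene of each setting from 1.12 to 1.94, from 0.73 to 1.31 and from 1.26 to 1.98.

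**Figure D2:**
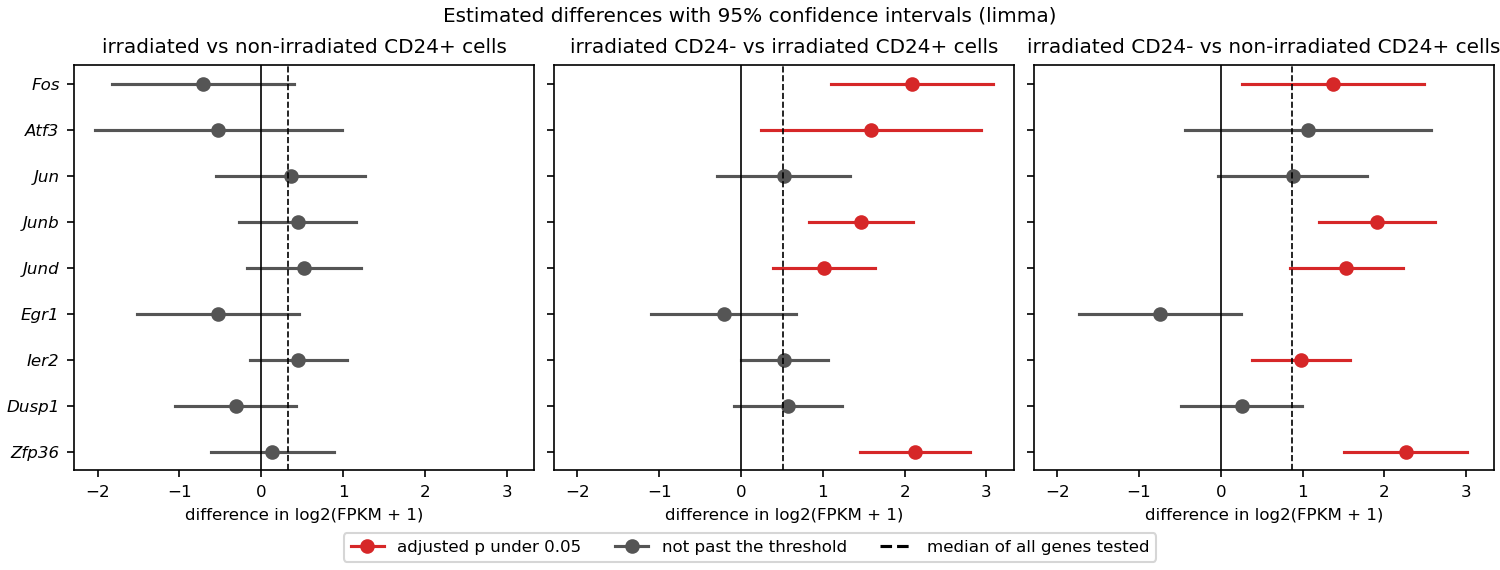
Estimated differences in log2(FPKM + 1) for the 9 tested genes in the 3 comparisons, with 95% confidence intervals from limma; red marks an adjusted p under 0.05 and the dashed line the median of all 11190 genes. Between the irradiated gates (middle) Fos and Zfp36 lie furthest to the right of the median gene and Egr1 to its left.

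In the Paneth cell gate itself, none of the 9 genes was called between irradiated and non-irradiated CD24+ cells, in either direction, and 0% of all genes were called by limma (smallest adjusted p over all genes 0.103). None of the 9 had an unadjusted p under 0.05, against 12.7% of all genes, and none had libraries that did not overlap between the groups, against 34.2% of all genes with the irradiated libraries higher and 1.13% with them lower. Fos (-0.72 ± 0.51), Egr1 (-0.53 ± 0.45), Atf3 (-0.52 ± 0.69) and Dusp1 (-0.31 ± 0.34) had estimates below 0, while the median gene stood at 0.32. These 4 estimates were at or below the 1.98th percentile of all genes, but without non-irradiated replicate 2 those of Fos (0.0030), Atf3 (0.72) and Dusp1 (0.19) were above 0. Their 95% intervals reached from -1.83 to 0.39 for Fos and from -2.03 to 0.98 for Atf3, and a fall of 1 log2 unit lay within both.

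That comparison rests on 2 non-irradiated libraries that differed from each other. Replicate 2 was above replicate 1 for all 10 genes, by 1.47-fold for Egr1, 1.83-fold for Ier2, 3.01-fold for Fos and Junb, 3.17-fold for Jun, 6.76-fold for Fosb and 15.5-fold for Atf3. Over all genes the median difference between these libraries was 0.53 on the log2 scale. Without replicate 2, Ier2 (0.84, adjusted p = 0.0283), Junb (0.98, 0.0375) and Jund (1.04, 0.0292) were called higher in irradiated cells, but so were 46.4% of all genes. Without replicate 1, Jun (-0.31), Junb (-0.089), Jund (-0.0027) and Zfp36 (-0.44) had estimates below 0 and none was called. Each of these fits has a single non-irradiated library, whose spread is taken from the irradiated groups.

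Against non-irradiated CD24+ cells, 5 of the 9 genes were called higher in irradiated CD24- cells and 0 lower, with 65.7% of all genes called higher and 4.99% lower. The 2 comparisons of CD24- cells share their CD24- libraries. Zfp36 was higher by 2.26 ± 0.34 (adjusted p = 0.000180), Junb by 1.91 ± 0.32 (0.000388) and Jund by 1.54 ± 0.32 (0.00132), the Jund call being lost with array weights (0.0639). Fos was higher by 1.37 ± 0.51 (adjusted p = 0.0303), a call that held in 13 of 20 alternatives. It was lost without replicate 1 of the non-irradiated cells (0.65, adjusted p = 0.373) and without replicate 3 of CD24- cells (0.96, 0.0696). Without replicate 2 of the non-irradiated cells the Fos difference was 2.09, and after median-of-ratios and quantile scaling it was 0.35 and 0.12 and not called. The Fos call was also lost without a filter on low values (adjusted p = 0.106), with array weights (0.292) and with robust empirical Bayes (0.0801). Ier2 was higher by 0.98 ± 0.27 (adjusted p = 0.00740), also lost without replicate 1 of the non-irradiated cells (0.59, 0.0672) and turned to -0.039 and -0.18 by median-of-ratios and quantile scaling. The Jund difference was 1.01 without that same non-irradiated library and was still called. After these 2 scalings 27.2% and 24.4% of all genes were called higher and 25.3% and 26% lower. Jun (0.88 ± 0.41, adjusted p = 0.0766), Atf3 (1.06 ± 0.68, 0.181) and Dusp1 (0.26 ± 0.34, 0.503) were not called, and Fosb was not tested. The Jun and Dusp1 estimates were below 0 after either of these scalings, and that of Atf3 without replicate 1 of the non-irradiated cells (-0.18).

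Egr1 was the 1 gene of the 9 whose estimate was below 0 in all 3 comparisons. Against non-irradiated cells it was -0.74 ± 0.45 in CD24- cells (adjusted p = 0.157), at the 3.92th percentile of all genes. It was called lower without replicate 3 of CD24- cells (-1.23, adjusted p = 0.00561), with the replicate number as a block over all 8 libraries (-1.14, adjusted p = 0.000382), and after median-of-ratios (-1.62, 0.0190) or quantile scaling (-1.55, 0.0219). Rescaling to TPM turned it to 0.41. The block over all 8 libraries also ties non-irradiated to irradiated libraries of the same number, a pairing that was not checked.

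Ratios between 2 genes of the same library do not depend on a scaling that multiplies each library by 1 factor, though quantile normalization can change them. The ratio of Fos to Egr1 was 11.0, 8.87 and 6.65 in CD24- libraries, 1.38, 1.58 and 1.37 in irradiated CD24+ libraries and 1.12 and 2.29 in non-irradiated ones. The ratio of Fos to Jun was 3.11, 2.98 and 3.04 in CD24-, 0.604, 0.956 and 1.40 in irradiated CD24+ and 2.34 and 2.22 in non-irradiated libraries. Both ratios were above all CD24+ libraries in every CD24- library, and the ratio of Fos to Jun was lowest in the irradiated Paneth cell gate. Zfp36 to Ier2 was 1.80, 2.06 and 4.10 in CD24-, 0.805, 0.659 and 0.888 in irradiated CD24+ and 0.849 and 1.13 in non-irradiated libraries.

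Jun made up 48.4% and 50.5% of the summed FPKM of Jun, Junb and Jund in non-irradiated cells, 47.1%, 41.9% and 47.1% in irradiated CD24+ cells and 27.3%, 25.3% and 40.7% in CD24- cells. Junb made up 31.3%, 49.8% and 32.2% in CD24- cells and 22.5% to 27.7% in the 5 CD24+ libraries. The CD24- cells thus held a lower share of Jun and a higher share of Junb than any CD24+ library, while the Jund share overlapped. The ratios and shares were chosen after values had been seen and are given as a description.

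**Figure D3:**
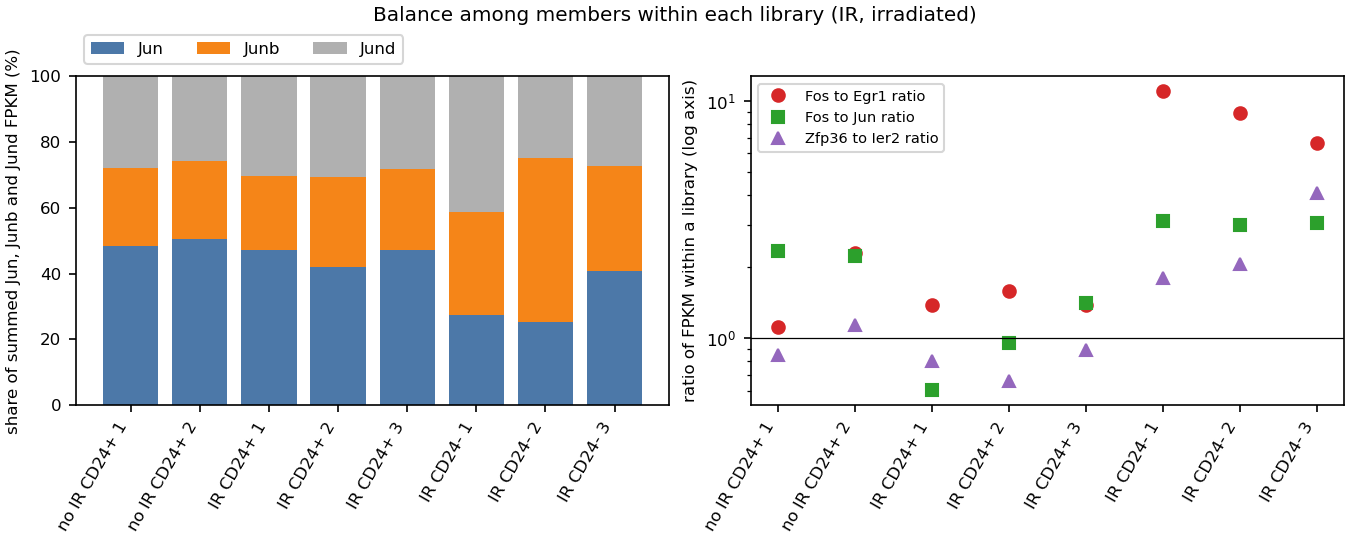
Left, share of each Jun gene in the summed FPKM of Jun, Junb and Jund per library (stacked bars, %); right, FPKM ratios of Fos to Egr1, Fos to Jun and Zfp36 to Ier2 per library (log axis). In the 3 irradiated CD24- libraries the Jun share is 27.3%, 25.3% and 40.7%, and the Fos to Egr1 ratio is between 6.65 and 11.0.

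The order of the genes' levels per length differed between groups. In CD24- cells Zfp36 (46.4 ± 14.9 FPKM, SD, n = 3) led, its range overlapped with that of Fos (30.2 ± 16.8), and that of Fos with Ier2 (18.3 ± 2.43). Ier2 was separated from Junb (11.2 ± 2.75), and from there Jun, Jund, Atf3, Egr1 and Dusp1 overlapped each with its neighbour. In irradiated CD24+ cells Ier2 (12.4 ± 2.57) led and did not overlap with Zfp36 (9.58 ± 0.942), the next in order. In non-irradiated cells Fos (11.4 ± 8.11, n = 2) led and all neighbours in the order overlapped. Fos and Zfp36 together held 51.9%, 53.3% and 58.0% of the 10 genes' summed FPKM in CD24- libraries, 31.5%, 31.0% and 34.4% in irradiated CD24+ and 38.6% and 40.5% in non-irradiated libraries.

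Within both irradiated gates replicate 3 was the highest library for several of these genes. Fos, Jun, Egr1, Atf3 and Dusp1, 5 of the 9 tested genes or 55.6%, were highest in replicate 3 of CD24+ and also in replicate 3 of CD24- cells, against 16.0% of all genes (1789 of 11190). Atf3 exceeded the mean of replicates 1 and 2 by 1.06 in CD24+ and 1.72 in CD24- cells, Egr1 by 0.94 and 1.46, Fos by 0.91 and 1.24 and Dusp1 by 0.63 and 0.77, all on the log2 scale. Jun exceeded it by 1.16 in CD24- cells but by 0.16 in CD24+ cells, where its replicates 2 and 3 stood at 6.47 and 6.57 FPKM. The medians of all genes were 0.04 and -0.10. Ier2 went the other way (-0.15 and -0.33), and Junb (0.06 and 0.32), Jund (-0.01 and 0.36) and Zfp36 (0.11 and 0.73) differed little in CD24+ cells. The pattern was noticed in the values, and the libraries of 1 number deviated together over all genes, so it is given as a description.

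Other measures also moved with replicate 3. Enterocyte markers summed to 35101 FPKM in replicate 3 of CD24- cells against 15903 and 21313, and to 1317 in replicate 3 of irradiated CD24+ cells against 898 and 820. The 10 enteroendocrine markers summed to 252, 779 and 1092 FPKM in replicates 1 to 3 of irradiated CD24+ cells and to 375.0, 1180.04 and 3581 in those of CD24- cells. The 12 stromal and endothelial markers summed to 2.16, 6.56 and 10.9 FPKM and to 4.47, 12.6 and 45.2. Of these 12, just 1 reached 1 FPKM per library, or 2 in replicate 3 of CD24- cells. Col1a2, Lum, Acta2, Cdh5 and Kdr were at 0 in all 6 libraries. The rise of this sum is therefore not one of the list as a whole. The 13 heat shock genes summed to 1760 FPKM in replicate 3 of CD24- cells, below its other 2 libraries (2514 and 2609). Crypt base columnar stem cell markers summed to 461, 327 and 71.3 FPKM in replicates 1 to 3 of CD24- cells. Paneth cell markers summed there to 38482, 10620.5 and 5484 and goblet cell markers to 11428, 10517 and 6094. In irradiated CD24+ cells the stem cell markers summed to 1290, 1183 and 1034. Replicate 3 was not the lowest there for Paneth or goblet cell markers. The part of these measures in the replicate 3 values was not tested. Without the libraries numbered 3, Fos, Junb, Jund, Atf3 and Zfp36 were still called higher in CD24- than in irradiated CD24+ cells.

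**Figure D4:**
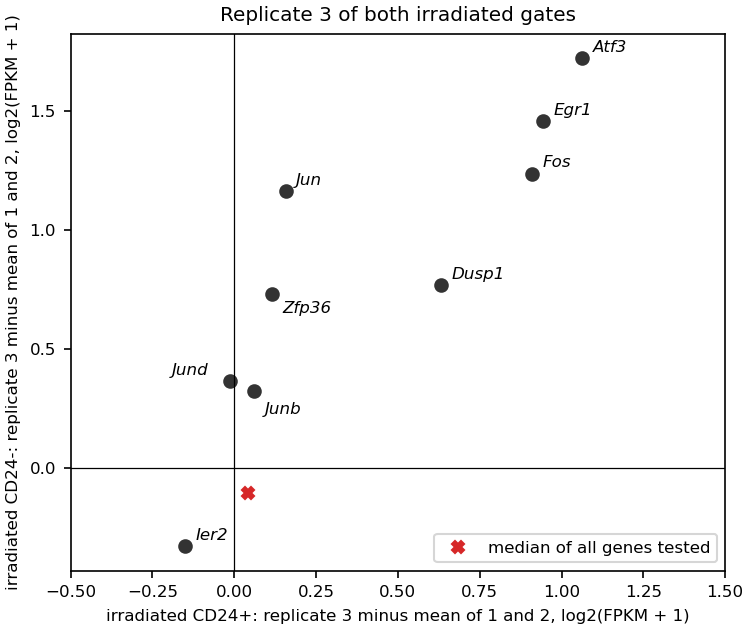
Deviation of replicate 3 from the mean of replicates 1 and 2 in log2(FPKM + 1), in irradiated CD24+ (horizontal) and irradiated CD24- cells (vertical), for the 9 tested genes; the red cross is the median of all genes. Atf3, Egr1, Fos and Dusp1 lie far from the cross in both gates, and Ier2 lies below 0 in both.

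Over the 8 libraries the most alike of the 9 profiles were those of Junb and Zfp36 (root mean square difference of centred log2 values 0.341) and of Jun and Dusp1 (0.345), and the least alike those of Egr1 and Zfp36 (1.34). Of 6823 other genes with a mean of at least 5 FPKM, Phykpl (0.150), Litaf (0.153), Plscr1 (0.165), Cltb (0.167), Hif1a (0.172) and Trim25 (0.177) were closest to the mean profile of the 9 genes, where the median gene was at 0.501. Closest to Fos alone were Slc11a2 (0.428), Hsd17b13 (0.433), Samd9l (0.436), Slc16a6 (0.439), 1110007C09Rik (0.441) and 4930539E08Rik (0.445), where the median gene was at 0.856. These are descriptions over shared libraries.

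The wider pathway was followed through lists of related genes, compared between the irradiated gates. Of 11 other AP-1 and small Maf genes 7 were tested, 3 were called higher in CD24- cells and 0 lower, with a median difference of 0.32 against 0.51 over all genes. For this and each list that follows, the share of all genes called was 48.6% higher and 7.27% lower. The 3 were Batf2 (2.87 ± 0.23, adjusted p = 7.5e-06), the Fos family gene Fosl2 (1.59 ± 0.23, adjusted p = 0.00017) and the small Maf gene Mafk (1.27 ± 0.25, adjusted p = 0.00130), each called in all 21 alternatives. Fosl2 stood between 19.4 and 29.1 FPKM in CD24- and between 6.47 and 7.04 in irradiated CD24+ libraries. Fosl1 and Batf3 were listed at 0 in all libraries.

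Other immediate early genes moved in both directions. Of 42, 31 were tested, 19 were called higher in CD24- cells and 4 lower, with a median of 0.89. The serum- and glucocorticoid-induced kinase gene Sgk1 (3.35 ± 0.27), Ier5 (1.93 ± 0.19), the stress gene Gadd45a (1.88 ± 0.22) and the zinc finger gene Klf6 (1.87 ± 0.26) had the largest differences and were called in all 21 alternatives. Sgk1 stood between 19.2 and 29.2 FPKM in CD24-, between 0.956 and 1.68 in irradiated CD24+ and at 2.90 and 6.68 in non-irradiated libraries. Gadd45g, of the same family as Gadd45a, was lower in CD24- cells (-2.95 ± 0.28), at 3.12 to 6.30 FPKM against 39.4 to 50.01. Phlda1 (-1.46 ± 0.30), Myc (-1.03 ± 0.32) and the nuclear receptor gene Nr4a2 (-0.57 ± 0.16) were lower too, and none of these 3 was called after rescaling to TPM, where Myc (0.087) and Nr4a2 (0.11) had estimates above 0. Without replicate 2 of irradiated CD24+ cells neither Myc nor Nr4a2 was called, and without replicate 3 of CD24- cells Myc was not. After median-of-ratios scaling the list had 13 higher and 9 lower, against 29.5% and 28.3% of all genes. After quantile normalization it had 15 and 8, against 25.2% and 30.5%. The replicate block called 19 higher and 7 lower over all 8 libraries, against 49.6% and 8.18% of all genes. Over the 6 irradiated ones it called 20 and 7, against 55.4% and 8.75%. Array weights called 20 and 8, against 62.9% and 14.5%.

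Upstream, 20 of 23 MAP kinase cascade genes were tested, 15 were called higher in CD24- cells and 1 lower, with a median of 1.03, where 48.6% of all genes were called higher and 7.27% lower. The kinase genes Map2k2 (1.97 ± 0.27), Map2k3 (1.63 ± 0.25), Rps6ka4 (1.55 ± 0.22) and Map2k1 (1.55 ± 0.22) had the largest differences and were called in all 21 alternatives, while Map2k6 was lower (-1.08 ± 0.23), except after rescaling to TPM (0.00). Quantile normalization left 7 genes higher and 3 lower, against 25.2% and 30.5% of all genes. Of 7 serum response factor, ternary complex and CREB genes 5 were tested and 3 were called higher, Srf (0.70 ± 0.18), Elk4 (0.57 ± 0.19) and Mkl1 (0.53 ± 0.17), with a median of 0.53. After median-of-ratios or quantile scaling 0 of the 5 were higher and 1 was lower. Median-of-ratios scaling called 29.5% of all genes higher and 28.3% lower. Without replicate 1 of irradiated CD24+ or of CD24- cells 1 was higher, with 39% and 42.2% of all genes.

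Other phosphatase and tristetraprolin family genes were compared in the same way. Of 9 further MAP kinase phosphatase genes 6 were tested, 3 were called higher and Dusp7 lower (-0.80 ± 0.19), with a median of 0.58. Dusp5 was higher by 1.32 ± 0.24 in all 21 alternatives. Dusp6 was higher by 1.43 ± 0.57, with libraries from 5.76 to 49.3 FPKM in CD24- cells, and its call was lost in 10 of 21 alternatives, among them those without either non-irradiated library, without replicate 1 or 2 of irradiated CD24+ cells and without replicate 3 of CD24- cells. Dusp16 (0.75 ± 0.18) was not called after median-of-ratios or quantile scaling, or without both libraries numbered 3. Of the 3 other tristetraprolin family genes 2 were tested, Zfp36l1 (0.03 ± 0.23) and Zfp36l2 (0.31 ± 0.27), and the reported limma fit called neither, nor did either have an unadjusted p under 0.05. Both were called higher after rescaling to TPM and with array weights, as were 89.4% and 62.9% of all genes. Both were called lower after quantile normalization and 1 after median-of-ratios scaling, as were 30.5% and 28.3% of all genes. Zfp36l3 was listed at 0.

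**Figure D5:**
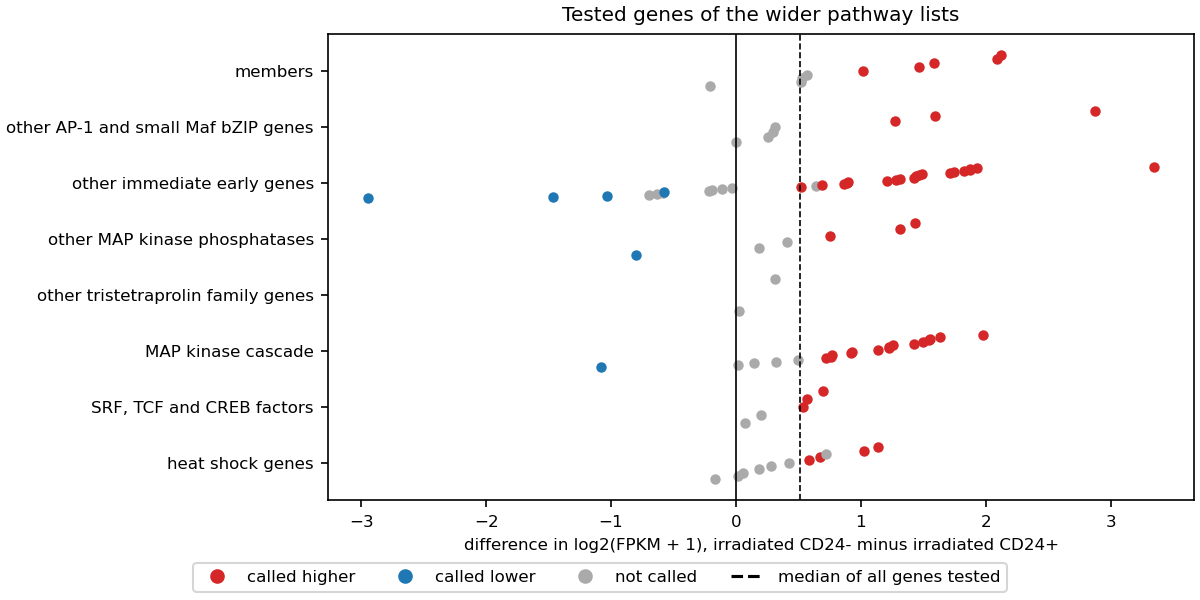
Difference in log2(FPKM + 1) between irradiated CD24- and irradiated CD24+ cells for each tested gene of the 10 genes and of 7 related lists, red where called higher, blue where called lower and grey where not called; the dashed line is the median of all genes (0.51). Immediate early genes spread from -2.95 (Gadd45g) to 3.35 (Sgk1).

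Between irradiated and non-irradiated CD24+ cells 0 genes of any of these lists were called by the reported limma fit, which holds both non-irradiated libraries. The median difference of the MAP kinase cascade list was 0.34, against 0.32 over all genes. Without non-irradiated replicate 2 it was 0.65 against 0.59, and without replicate 1 it was 0.02 against 0.07. The estimates thus depended on which non-irradiated library was kept. At an unadjusted p under 0.05 there were 3 of 31 other immediate early genes, 1 of 7 AP-1 and small Maf genes and 1 of 6 phosphatases. There were 0 of the MAP kinase cascade, tristetraprolin and serum response factor lists. The share of all genes was 12.7%, so these counts are no result about the lists. With the replicate block over all 8 libraries 1 of the 31 immediate early genes was called lower, with 0.134% of all genes. The smallest unadjusted p of the immediate early list was that of Sgk1 (-1.25 ± 0.30, adjusted p = 0.348).

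Jund and Zfp36 share exon bases with the antisense genes Gm11175 and Gm44710 in GENCODE annotation. The library kit keeps no strand, so reads of each pair cannot be told apart.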

How the data were processed

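RNA libraries were made with a kit that keeps no strand information (TruSeq RNA v2), per the labels' protocols. The authors deposited 1 table of FPKM per gene symbol and library, per the file headers, and the submitters' processing notes name TopHat2 2.1.0, StringTie 1.3.4 and build mm9. Which annotation was used, and whether rows were filtered, is not given in the sources used here. Deposited FPKM sums ranged from 540467 to 1638350 per library, and no scaling between libraries was seen.

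The 24015 entries were summed to 24013 symbols. Genes with at least 1 FPKM in at least 2 libraries (11190) were fitted as log2(FPKM + 1) over all 8 libraries with limma (version 3.58.1, R 4.3.3; linear model, contrasts, empirical Bayes with a mean-variance trend), and Benjamini-Hochberg adjustment was over all genes. The procedure was tested on simulated data. Marker and pathway lists, ratios and likeness were computed in Python 3.11.15 with pandas 2.3.3 and scipy 1.17.1, and plots with matplotlib 3.10.9.

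The 10 genes and all lists were chosen with earlier results of these data known. All 10 were named in each comparison, and of each related list up to 4 called genes per direction with the largest difference, or the one with the smallest p. Genes most like the 10 were the 6 with the smallest root mean square difference among those with a mean of at least 5 FPKM.

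Whether replicate numbers pair the irradiated libraries was checked on residuals over 11190 genes. Same-numbered CD24+ and CD24- libraries correlated at r = 0.366, 0.231 and 0.402, and other pairings at 0.0518 or below, so the numbers were taken to pair them. This pairing comes from the data, as no label ties a number to an animal. The reported limma fit has no replicate block, so its calls ignore the pairing. The pairing was not checked for the non-irradiated libraries, which the block over all 8 libraries also ties by number. Blocked values stand beside results of the 10 genes whose call they change, and beside list counts they move by over 1.5 times.

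Depth was approximated from the step that 1 fragment makes in 10961 genes with a single GENCODE transcript, an annotation of another build. Alternatives were another pseudocount (0.1), no filter or one at 5 FPKM, 4 scalings, other fits, and leaving out each library.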

Additional observations from a re-analysis of the deposited data

How the results depend on the processing

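Rescaling to TPM called 8 of the 9 genes higher in CD24- than in irradiated CD24+ cells and 8 against non-irradiated cells. The shares of all genes were 89.4% and 93.2%. Median-of-ratios scaling and quantile normalization each called 3 and 3, with 1 (Egr1) lower against non-irradiated cells. They called 29.5% and 25.2% of all genes higher between the irradiated gates. Against non-irradiated cells they called 27.2% and 24.4% higher and 25.3% and 26% lower. Array weights called 1 (Egr1) lower in CD24- than in irradiated CD24+ cells, with 14.5% of all genes. They called 3 higher against non-irradiated cells, with 49.9% of all genes. Leaving out 1 library gave 4 to 6 higher between the irradiated gates, 3 to 7 higher and 0 to 1 lower against non-irradiated cells, and 0 to 3 higher between irradiated and non-irradiated CD24+ cells. Over all genes, fits without 1 irradiated library called 39% to 47.4% higher between the irradiated gates. Against non-irradiated cells they called 58.3% to 67.6% higher and 4.13% to 5.02% lower. Leaving out both libraries numbered 3, an alternative chosen after seeing the data, gave 1 (Egr1) lower against non-irradiated cells. So did the replicate block over all 8 libraries. The shares of all genes called lower were 4.72% and 5.03%. Either replicate block also called Dusp1 higher between the irradiated gates and the 6-library block called Ier2. It changed no other call of the 10 genes.

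Estimates that changed sign were not called under the alternative concerned. With TPM, Egr1 was 0.78 between the irradiated gates and 0.41 against non-irradiated cells. With median-of-ratios and quantile scaling, Ier2 was -0.075 and -0.27 and Jun -0.041 and -0.099 between the irradiated gates; against non-irradiated cells Ier2 was -0.039 and -0.18, Jun -0.040 and -0.054 and Dusp1 -0.34 and -0.14; and Zfp36 was -0.27 and -0.25 between irradiated and non-irradiated CD24+ cells, where it was -0.0044 with the replicate block. Over single libraries left out, estimates between irradiated and non-irradiated CD24+ cells ran from -1.44 to 0.0030 for Fos, -1.77 to 0.72 for Atf3, -0.82 to 0.19 for Dusp1, -0.31 to 1.03 for Jun, -0.089 to 0.98 for Junb, -0.0027 to 1.04 for Jund and -0.44 to 0.71 for Zfp36. Egr1 between the irradiated gates ran from -0.70 to 0.10, and against non-irradiated cells Atf3 ran from -0.18 to 2.31 and Dusp1 from -0.25 to 0.76. The cause was not tested.

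Over all genes, calls between the irradiated gates (5439 higher, 813 lower) became 10000 and 260 with TPM, 3302 and 3171 with median-of-ratios and 2821 and 3408 with quantile scaling, with 401 lower at a filter of 5 FPKM and 1628 lower with array weights. Against non-irradiated cells (7349 and 558) they became 10430 and 212, 3047 and 2836, and 2729 and 2905, with 842 lower without a filter and 287 at 5 FPKM. Between irradiated and non-irradiated CD24+ cells (0) leaving out non-irradiated replicate 2 gave 5172 higher and 13 lower, against 77 and 15 with the replicate block, 34 and 6 without the libraries numbered 3 and at most 13 in 1 direction otherwise. With 2 or 3 libraries a group, a fall of 1 log2 unit in Fos or Atf3 was not detectable between irradiated and non-irradiated CD24+ cells.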

Other observations

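Heat shock genes, another early stress group that here includes the mitochondrial chaperonin genes Hspd1 and Hspe1, were taken from a list of 13, of which 11 were tested. Between the irradiated gates 4 were called higher in CD24- cells and 0 lower, with a median of 0.43 against 0.51 over all genes. The same fit called 48.6% of all genes higher and 7.27% lower. The co-chaperone genes Dnaja1 (1.14 ± 0.25, adjusted p = 0.00241) and Dnajb1 (1.02 ± 0.19, adjusted p = 0.000842) were called in 20 of 21 alternatives, all but quantile normalization. Dnajb4 (0.67 ± 0.18) and Bag3 (0.59 ± 0.23) were called in 17 of 20 and 10 of 21, and Bag3 was not called without any 1 of the 6 irradiated libraries. After median-of-ratios scaling 2 of the 11 were higher and 2 lower, against 29.5% and 28.3% of all genes. After quantile normalization 0 were higher and 5 lower, against 25.2% and 30.5%. Between irradiated and non-irradiated CD24+ cells limma called 0 of the 11. There 5 had an unadjusted p under 0.05, against 12.7% of all genes, led by Hsph1 (1.06 ± 0.33, adjusted p = 0.348). The median difference of the list there was 0.75, against 0.32 over all genes. Leaving out non-irradiated replicate 2 it was 1.33 against 0.59, and leaving out replicate 1 it was 0.23 against 0.07. Each of these 2 fits has a single non-irradiated library. With the replicate block over all 8 libraries 1 was called higher, with 0.688% of all genes.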
